A study of Mus musculus with 8 samples.

Results

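The mutant atrioventricular (AV) cushion was set against the mutant ventricle, to describe which RNA differences between these tissues of the heart remained in the mutant. The comparison used 4 of the 8 libraries of the series, chosen by tissue and genotype: 2 of mutant AV cushion and 2 of mutant ventricle, all from C57BL/6 mouse embryos at E12.5. The genotype label of the mutants is NfatC1+/-; KLF2fl/fl, so both Klf2 alleles are floxed. Whether +/- means loss of an Nfatc1 copy or a recombinase allele is not given in the labels, nor are the recombinase that acted on Klf2 and its cell type. The other 4 libraries, 2 of AV cushion and 2 of ventricle labelled wild type, give the same tissue comparison in control hearts, while the design text names KLF2 fl/fl mice beside the mutants. In the text, mutant cushions 1 and 2 and mutant ventricles 1 and 2 are the libraries with those replicate numbers.

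AV cushions are swellings of the wall of the AV canal, filled with a matrix rich in hyaluronan and lined by endocardium, and valves and septa form from them. BMP ligands from the myocardium of the AV canal act on this endocardium, part of which turns into migrating mesenchyme that expresses factors such as Twist1, Msx1 and Sox9. AV canal muscle keeps a slowly conducting, pacemaker-like state under the repressors Tbx2 and Tbx3, whereas chamber muscle of the ventricle builds a dense contractile apparatus and expresses Nppa and Irx genes. Klf2 is a flow-induced transcription factor gene of endothelium, including the endocardium of the cushion, which also produces the ligand Wnt9b.

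Total RNA was sequenced after removal of ribosomal RNA. Library totals lay between 18955733 and 26579215 counts with 1 entry kept per gene symbol, and 14940 symbols were tested. The unit of levels is CPM, a gene's reads scaled to libraries of equal size and composition, and 1 CPM corresponded to between 18.7 and 25.3 reads. A log2 fold change is cushion minus ventricle, and a gene is called here when its adjusted p in edgeR's quasi-likelihood test with Benjamini-Hochberg adjustment lies under 0.05. Nothing in the labels ties replicates to separate embryos, so p-values cover only the scatter of these libraries, which may be technical. On the first principal component, with 63.0% of the variance, the 4 ventricle libraries lay between 35.0 and 50.3 and 3 of the cushion libraries between -54.9 and -46.3. Mutant cushion 2 stood apart from the other cushions at -22.8, on the side of the ventricles. Results that change without it are therefore given both ways. Leaving out a library leaves its group with 1 library, whose spread is then assumed to be that of the other groups in the fit.

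Klf2 RNA was at 1.96 and 0.651 CPM in mutant cushions 1 and 2 and at 0.735 and 0.625 CPM in mutant ventricles 1 and 2. The wild type cushions had 17.3 and 12.9 CPM and the wild type ventricles 11.7 and 9.19 CPM, so every mutant library lay below every wild type library. Between the mutant tissues the log2 fold change of Klf2 was 0.91 ± 0.51 (SE) and did not pass (adjusted p = 0.313 in edgeR), while it passed without mutant cushion 2 (1.52, adjusted p = 0.0473 in edgeR). Nfatc1, an endocardial transcription factor gene, was at 24.9 and 15.2 CPM in mutant cushions and 17.4 and 6.83 CPM in mutant ventricles. In the wild type it was at 35.9 and 22.1 CPM in cushions and 18.5 and 7.87 CPM in ventricles. The mutant cushion and ventricle values of Nfatc1 overlapped, and its log2 fold change of 0.72 ± 0.60 (SE) was not called (adjusted p = 0.527), although it was with the replicate number as a block (adjusted p = 0.0042 in edgeR).

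In the mutant heart, the calls higher in the cushion included 12 of 39 matrix, 15 of 26 mesenchyme factor, 12 of 17 AV canal, 14 of 27 BMP and TGF-beta and 12 of 23 WNT ligand and inhibitor genes. These lists are not independent. Id1, Id2, Id3 and Smad6 are in both the mesenchyme factor and the BMP lists, and Bmp2 is in both the BMP and the AV canal lists. The calls lower in the cushion included 11 of 30 sarcomere, 10 of 30 chamber and 10 of 27 energy genes, and no sarcomere or energy gene was called without mutant cushion 1. Of the 14940 symbols, 1407 (9.42%) were called, 920 (6.16%) higher and 487 (3.26%) lower in cushion, and 3737 (25%) had an unadjusted p under 0.05. In the wild type the same test called 3452 symbols (23.1%), 1861 higher and 1591 lower in cushion. The 2 mutant cushion libraries both lay above the 2 mutant ventricle libraries for 4318 symbols (28.9%) and both below for 3616 (24.2%). As the RNA comes from pieces of tissue, fewer cells of a type and less RNA per cell cannot be told apart in any of these values.

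The number of calls in mutants depended on single libraries and on the model. It was 309 without mutant cushion 1, 848 without mutant ventricle 1 and 440 without mutant ventricle 2, against 1301 without mutant cushion 2. Of the 1407 calls, 238 higher and 37 lower in cushion were also called whichever of the 4 mutant libraries was left out. With the replicate number as a block, edgeR called 3572 symbols (23.9%), 2009 (13.4%) higher and 1563 (10.5%) lower. With a correction for transcript GC content and length it called 2139, of which 1137 were higher and 1002 lower, so that 53.2% of calls were higher in cushion against 65.4% without that correction.

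Most tissue differences called in mutants were also called in the wild type. 1112 symbols were called in both genotypes in the same direction, 760 higher and 352 lower in cushion, and 0 were called in opposite directions (21 with the replicate block). These were 79.0% of the mutant calls and 32.2% of the wild type calls. Of the 3452 wild type calls, 3151 (91.3%) had the same sign in mutants, and of the 1407 mutant calls, 1397 (99.3%) had the same sign in the wild type. The mutant and wild type contrasts share no library. Across the tested genes their log2 fold changes had a Pearson r of 0.788 and a Spearman rho of 0.610, as a description over genes that are not independent replicates.

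The size of the log2 fold changes was compared next. The 920 genes called higher in the mutant cushion had medians of 1.39 in mutants and 1.5 in the wild type, and the 487 called lower had medians of -0.92 and -0.88. The 1861 genes called higher in the wild type cushion had a median of 1.14 in the wild type and 0.76 in mutants, and the 1591 called lower had medians of -0.78 and -0.39. Without mutant cushion 2, genes called higher and lower in the wild type had medians of 1.23 and -0.81 there and 0.97 and -0.58 in mutants. Those called in mutants then had medians of 1.70 and -1.12 in mutants and 1.57 and -0.997 in the wild type. In each pair the genotype used to choose the genes carries the bias of that choice, so the medians are a description. The tissue difference itself did not differ between genotypes for any gene at an adjusted p under 0.05 in edgeR. The smallest adjusted p was 0.415, while 1776 symbols (11.9%) had an unadjusted p under 0.05. DESeq2 and limma-voom also called 0, with 1325 and 1712 symbols at an unadjusted p under 0.05. The replicate block called 0, with 3594 at an unadjusted p under 0.05. With the block and 1 library left out, 1312 were called without mutant cushion 1, 198 without mutant cushion 2, 1198 without mutant ventricle 1, 391 without wild type ventricle 1, 2 without wild type cushion 2 and 0 without each of the other 3 libraries. The per-gene difference between genotypes moved with transcript GC content (Spearman rho of -0.657 across genes), and with the correction for GC content and length 750 symbols (5.02%) had an unadjusted p under 0.05. With that correction and the replicate block together, 1724 symbols (11.5%) did. The part of GC content in the difference was not tested.

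**Figure D1:**
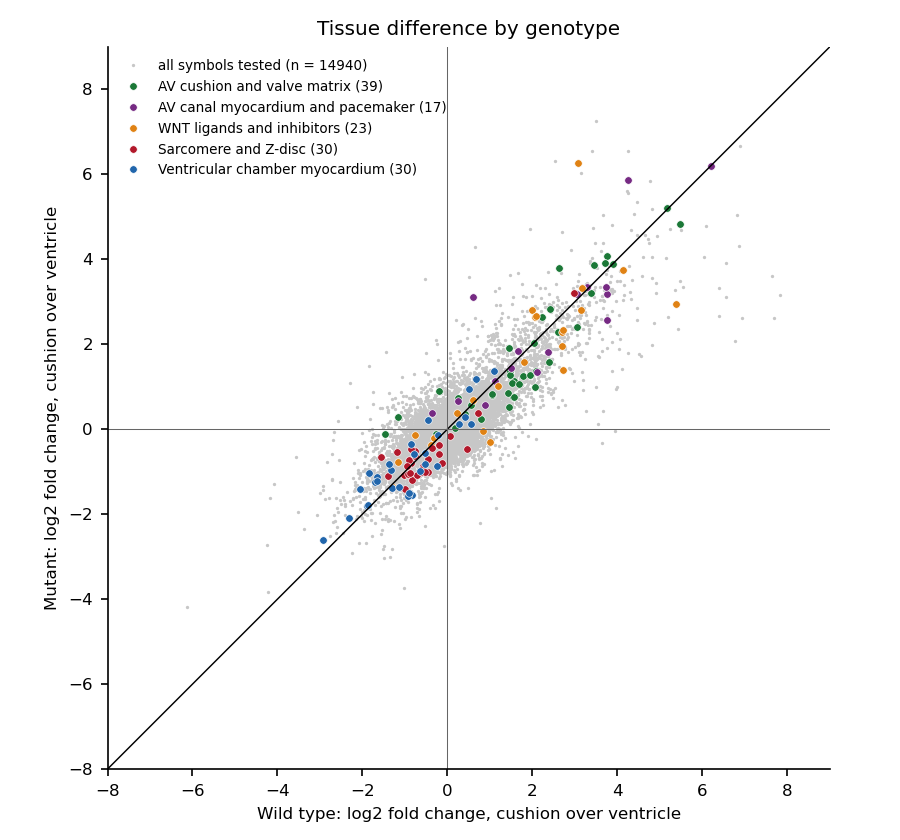
Log2 fold change of cushion over ventricle for each tested symbol, in the wild type (x axis) and in mutants (y axis). Members of the matrix, AV canal, WNT ligand and inhibitor, sarcomere and chamber lists are coloured, whether called or not. Of the 1407 symbols called in mutants, which are not marked, 1397 had the same sign in the wild type.

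Matrix genes called in mutants were all on the cushion side. Of 39 matrix genes of cushions and valves, 12 were called higher and 0 lower in the mutant cushion, with a median log2 fold change (1.25) above that of all tested symbols (0.01), and 20 higher and 1 lower in the wild type, with a median of 1.56. In 23 of the 39 both mutant cushion libraries lay above both mutant ventricle libraries. Dpt, which encodes dermatopontin, a protein that binds collagen fibrils, was at 15 and 15.5 CPM in mutant cushions and 0.368 and 0.446 CPM in mutant ventricles. The wild type had 55.0 and 41.9 CPM in cushions and 1.28 and 1.37 CPM in ventricles. Dpt was thus lower in both mutant tissues than in their wild type counterparts, with a tissue log2 fold change of 5.22 ± 0.25 (SE) in mutants (adjusted p = 1.26e-04 in edgeR) and 5.18 ± 0.22 (SE) in the wild type.

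Matn4, a matrilin gene, was at 9.66 and 6.34 CPM in mutant cushions and 0.368 and 0.179 CPM in mutant ventricles (log2 fold change 4.82 ± 0.47 (SE), adjusted p = 0.00131 in edgeR). Postn encodes periostin, a protein of maturing valve mesenchyme, and was at 3394 and 3110 CPM in mutant cushions and 462 and 240.5 CPM in mutant ventricles. The groups were well apart, with a log2 fold change of 3.21 ± 0.39 (SE). Lum, the gene of the proteoglycan lumican, was at 417 and 312 CPM against 34.8 and 13.8 CPM, and Has2, the synthase of hyaluronan, was at 270.0 and 254 CPM against 28.9 and 6.88 CPM. Their log2 fold changes were 3.91 ± 0.50 (SE) and 3.87 ± 0.70 (SE). Both kept separated groups, but neither was called without mutant cushion 1 (adjusted p = 0.0631 and 0.139 in edgeR), and Has2 was not called without mutant cushion 2 either (adjusted p = 0.0653).

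Some matrix genes had a wide spread between replicates. Vcan, the gene of versican, the main proteoglycan of the cushion, was at 6223 and 2920 CPM in mutant cushions and 2934 and 853 CPM in mutant ventricles. Mutant cushion 2 lay just below mutant ventricle 1, and Vcan was not called (log2 fold change 1.27 ± 0.90 (SE), adjusted p = 0.453), but was with the replicate block (adjusted p = 3.95e-05 in edgeR). Col1a1, a fibrillar collagen gene, was at 159 and 54.8 CPM against 68.6 and 38.2 CPM and behaved likewise, with adjusted p = 0.488 without and 8.51e-04 with the block. The block raised the calls in the matrix list to 31 higher and 0 lower of 39. The list had 5 calls without mutant cushion 1 and 7 without mutant ventricle 2, and Col6a1, Dpt, Matn4, Mfap4 and Postn were called whichever mutant library was left out. In 27 of the 39 matrix genes mutant cushion 2 had the lowest level of the 4 cushion libraries, against 4558 (30.5%) of all tested symbols, and its part in the list's counts was not tested beyond leaving it out, which gave 13 calls.

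Transcription factors of cushion mesenchyme were tested next. Of 26 listed, 15 were called higher and 0 lower in the mutant cushion (median log2 fold change 1.67), and 18 higher and 0 lower in the wild type (median 1.80). All 26 had a positive log2 fold change in mutants. Twist1, which drives proliferation and migration of the mesenchyme, was at 93.2 and 66.0 CPM in mutant cushions and 8.09 and 2.68 CPM in mutant ventricles. Msx1, a homeobox gene induced by BMP, was at 12.8 and 11.2 CPM against 1.06 and 0.580 CPM. Their log2 fold changes were 3.88 ± 0.66 (SE; adjusted p = 0.0222 in edgeR) and 3.84 ± 0.34 (SE; adjusted p = 0.00119), and no library of 1 tissue overlapped the other.

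Nfatc4, a member of the calcium-regulated NFAT family, was at 35.6 and 20.6 CPM in mutant cushions and 5.43 and 4.96 CPM in mutant ventricles (log2 fold change 2.43 ± 0.27 (SE), adjusted p = 0.0024 in edgeR). Snai2, a repressor of epithelial genes during the transition to mesenchyme, was at 18.9 and 12.3 CPM against 4.41 and 2.63 CPM, with a log2 fold change of 2.14 ± 0.32 (SE). In both genes mutant cushion 2 was the lower cushion and still lay above both ventricles. Sox9, a regulator of matrix genes in valve progenitors, was at 57.6 and 24.9 CPM against 8.54 and 2.19 CPM. Its libraries did not overlap, but the spread within each tissue left it uncalled (log2 fold change 2.93 ± 0.88 (SE), adjusted p = 0.103), while the replicate block called it (adjusted p = 8.54e-08 in edgeR). Leaving out mutant cushion 2 gave 13 calls, leaving out mutant cushion 1 gave 9 and leaving out mutant ventricle 2 gave 7, which were Id1, Id2, Id3, Msx1, Nfatc4, Smad6 and Snai2.

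BMP signalling starts the transition of endocardium to mesenchyme. Of 27 BMP and TGF-beta genes, 14 were called higher and 2 lower in the mutant cushion (median log2 fold change 0.97), and 14 higher and 3 lower in the wild type (median 1.11). The ligand gene Bmp2, expressed by AV canal muscle, was at 68.8 and 73.7 CPM in mutant cushions and 9.68 and 4.33 CPM in mutant ventricles. Mutant cushion 2 was near mutant cushion 1, and the log2 fold change was 3.34 ± 0.41 (SE; adjusted p = 0.00552 in edgeR). The ligand gene Bmp6 was also higher, at 19.2 and 16.4 CPM against 5.72 and 5.54 CPM (log2 fold change 1.66 ± 0.20 (SE)). The ligand gene Bmp10 was called lower in the wild type cushion (-3.38) and not in mutants (-2.35, adjusted p = 0.091 in edgeR). The list had 15 calls higher and 1 lower without mutant cushion 2.

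Inhibitors and targets that BMP signalling induces were higher by smaller factors. Smad6 and Smad7, the inhibitory SMAD genes, were at 68.1 and 53.3 CPM and at 74.7 and 55.5 CPM in mutant cushions, against 19.4 and 21.8 CPM and 24.8 and 21.1 CPM in mutant ventricles. Id1, a direct target gene, was at 34.7 and 27.5 CPM against 11.7 and 11.3 CPM. The log2 fold changes of Smad6, Smad7 and Id1 were 1.56 ± 0.17, 1.51 ± 0.17 and 1.44 ± 0.16 (SE), and their libraries did not overlap. The 2 genes called lower in the cushion encode receptors. Tgfbr3, a co-receptor for TGF-beta 2, was at 41.3 and 51.6 CPM against 209 and 130.1 CPM (log2 fold change -1.87 ± 0.36 (SE)), and Bmpr1b, a BMP receptor, was at 3.04 and 2.91 CPM against 8.74 and 6.74 CPM (-1.38 ± 0.26 (SE)). Bambi, Bmp2, Bmp6, Id1, Id2, Id3, Id4, Smad6, Smad7 and Smad9 were called whichever mutant library was left out, while neither Tgfbr3 nor Bmpr1b was called without mutant cushion 1 (adjusted p = 0.199 and 0.102 in edgeR), without mutant cushion 2 or without mutant ventricle 1.

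Genes of AV canal muscle and of pacemaker cells had the highest median of the 23 lists. Of 17 tested, 12 were called higher and 0 lower in the mutant cushion, all 17 had a positive log2 fold change, and the median was 2.58 in mutants and 2.38 in the wild type. Shox2, a pacemaker transcription factor gene, was at 6.77 and 6.69 CPM in mutant cushions, while the mutant ventricles, at 0.0409 and 0.134 CPM, held 4 counts in all against 292 in the cushions. The ratio of scaled counts was 78.8, with a 95% interval of 30.4 to 291 that covers counting error only (adjusted p = 0.00221 in edgeR). Vsnl1, a neuronal calcium sensor gene also found in the sinus node, had 283 counts in mutant cushions and 5 in mutant ventricles, a ratio of 61.1 (25.9 to 189.6).

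Tbx2 and Tbx3, the repressors of the chamber programme, were higher in both mutant cushions. Tbx2 was at 17.1 and 17.2 CPM against 2.29 and 1.47 CPM, and Tbx3 at 37.6 and 30.1 CPM against 4.25 and 2.37 CPM. Their log2 fold changes were 3.18 ± 0.30 (SE; adjusted p = 0.00121 in edgeR) and 3.35 ± 0.46 (SE; adjusted p = 0.00895), and Tbx3 was not called without mutant cushion 1 (adjusted p = 0.0667). Cacna1g, a T-type calcium channel gene of pacemaker tissue, was at 17.0 and 13.4 CPM against 2.78 and 2.28 CPM (log2 fold change 2.58 ± 0.22 (SE)). In the wild type Cacna1g was at 30.4 and 28.5 CPM against 2.51 and 1.80 CPM, a log2 fold change of 3.77 ± 0.23 (SE), and the difference between genotypes of -1.19 was not called (adjusted p = 0.415). Hcn4, a pacemaker channel gene, was at 12.6 and 15.6 CPM against 11.1 and 7.72 CPM, separated but not called (log2 fold change 0.58 ± 0.25 (SE), adjusted p = 0.192). The list had 8 calls without mutant cushion 1, and as many without mutant ventricle 2.

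**Figure D2:**
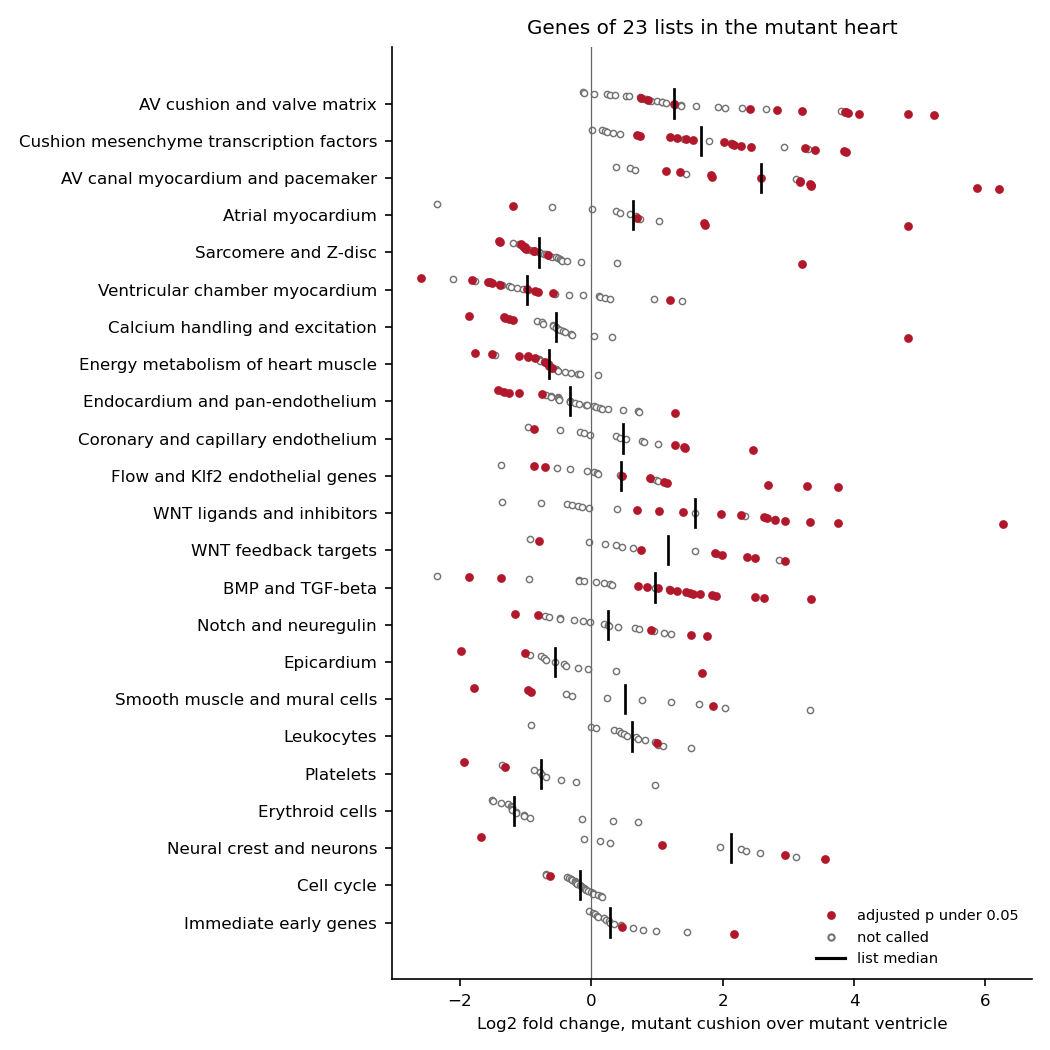
Log2 fold change of cushion over ventricle in mutants (x axis) for each tested member of the gene lists (one line per list), called members filled and the list median as a bar. The AV canal list has a median of 2.58, right of 0, and the sarcomere and chamber lists have medians of -0.79 and -0.97, left of 0. The atrial and smooth muscle lists have medians right of 0, at 0.64 and 0.51.

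Of 14 genes of atrial muscle, 4 were called higher (Sln, Nr2f1, Kcna5 and Dkk3) and Angpt1 lower in the mutant cushion. Sln encodes sarcolipin, a regulator of the calcium pump of atrial muscle, and was at 10.3 and 20.7 CPM in mutant cushions against 1.02 and 0.0446 CPM in mutant ventricles. Its log2 fold change of 4.81 ± 1.03 (SE) was called (adjusted p = 0.0418 in edgeR), but not without mutant cushion 1 (0.134) nor without mutant cushion 2 (0.111). Myl7, the atrial light chain gene, was at 1123 and 1198 CPM against 662 and 877 CPM and was not called (adjusted p = 0.228), while the block called it (adjusted p = 0.0234). The atrial calls fell to 1 higher without mutant cushion 1 or mutant ventricle 1, and to 0 higher without mutant ventricle 2, while the block called 8 higher and 2 lower.

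WNT ligand and inhibitor genes called in mutants were all on the cushion side. Of 23 WNT ligand and secreted inhibitor genes, 12 were called higher and 0 lower in mutants (median log2 fold change 1.58), against 14 and 1 in the wild type (median 1.98), and 7 of the 23 had a negative log2 fold change in mutants. Wnt9b was at 6.96 and 6.90 CPM in mutant cushions and 0.654 and 0.357 CPM in mutant ventricles, and at 34.9 and 34.4 CPM and 2.83 and 1.11 CPM in the wild type tissues. Both mutant tissues lay below their wild type counterparts, and the tissue log2 fold changes were 3.75 ± 0.42 (SE; adjusted p = 0.0024 in edgeR) in mutants and 4.13 ± 0.36 (SE) in the wild type. Wnt2 was at 12 and 11.9 CPM in mutant cushions against 2.53 and 2.37 CPM (2.28 ± 0.29 (SE)), and Wnt4 at 14.8 and 9.29 CPM against 3.31 and 2.81 CPM (1.97 ± 0.27 (SE)). Both ligand genes had separated libraries and were called whichever mutant library was left out.

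Among the secreted inhibitors of WNT, Dkk2 and Frzb were also on the cushion side. Dkk2 was at 12.9 and 10.1 CPM in mutant cushions against 2.29 and 0.982 CPM, and Frzb, a frizzled-related decoy, at 36.8 and 20.7 CPM against 5.64 and 3.57 CPM, with log2 fold changes of 2.80 ± 0.38 and 2.64 ± 0.35 (SE). Wnt7a had 19 counts in the mutant cushions and 0 in the mutant ventricles, which is at least 6.84-fold higher against a floor of 3 counts over the ventricles. Its fitted value in the plot of lists is no bound, and the list's median is the same with Wnt7a at that bound. The list had 6 calls without mutant cushion 1, 7 without mutant ventricle 2 and 9 without mutant cushion 2, and the block called 14 higher and 2 lower.

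A list of WNT feedback targets had 16 genes, and whether WNT signalling induces each of them was not tested. In the mutant cushion 6 were called higher (Axin2, Lef1, Nkd1, Notum, Apcdd1 and Rnf43) and 1 lower (Kremen1). The wild type had 11 called higher and 0 lower. The median log2 fold change was 1.17 in mutants and 1.89 in the wild type. Axin2, the scaffold of the complex that degrades beta-catenin, was at 10.4 and 9.94 CPM in mutant cushions and 3.02 and 2.10 CPM in mutant ventricles, and at 23.1 and 25.2 CPM and 3.26 and 2.48 CPM in the wild type. The mutant ventricles lay near the wild type ventricles and the mutant cushions below the wild type cushions, with log2 fold changes of 1.98 ± 0.23 (SE) in mutants and 3.07 ± 0.23 (SE) in the wild type. Notum, an enzyme that inactivates WNT ligands, was at 4.37 and 3.0 CPM against 0.490 and 0.446 CPM in mutants, and at 17.0 and 14.8 CPM against 0.535 and 0.211 CPM in the wild type. The tissue log2 fold change was 2.95 ± 0.37 (SE) in mutants and 5.39 ± 0.39 (SE) in the wild type.

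Nkd1, a feedback inhibitor, was at 12.4 and 10.4 CPM against 6.09 and 7.37 CPM in mutants (log2 fold change 0.76 ± 0.18 (SE), adjusted p = 0.0332) and had a log2 fold change of 1.97 ± 0.18 (SE) in the wild type. Apcdd1, a membrane inhibitor of WNT, was at 44.5 and 33.3 CPM against 8.13 and 6.97 CPM in mutants, with 2.36 ± 0.21 (SE) in mutants and 3.33 ± 0.21 (SE) in the wild type. For Notum, Nkd1, Axin2 and Apcdd1 the difference between genotypes was -2.44, -1.21, -1.09 and -0.97 and was not called (adjusted p = 0.415 each in edgeR). Apcdd1, Axin2, Lef1 and Notum were called whichever mutant library was left out, and they were the 4 calls higher without mutant cushion 1, mutant ventricle 1 or mutant ventricle 2.

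Of 20 genes linked to blood flow or to Klf2 in endothelium, 7 were called higher (Klf4, Klf6, Thbd, Edn1, Wnt9b, Pi16 and Aqp1) and 2 lower (Ptgs1 and Gja4) in the mutant cushion. Aqp1, the gene of a water channel of endothelium, was at 247 and 180 CPM in mutant cushions and 26.8 and 16.8 CPM in mutant ventricles, with wild type values of 236 and 225 CPM and 24.7 and 17.3 CPM. Mutant and wild type levels overlapped in both tissues, and the log2 fold change was 3.29 ± 0.28 (SE; adjusted p = 0.00122 in edgeR). Edn1, which encodes endothelin-1, was at 24.7 and 27.1 CPM against 10.6 and 12.9 CPM (1.15 ± 0.17 (SE)), and Klf4, a relative of Klf2, at 36.0 and 31.3 CPM against 21.0 and 15.3 CPM (0.89 ± 0.18 (SE)). Klf4 was not called without mutant cushion 1 (adjusted p = 0.15). Nos3, the endothelial nitric oxide synthase gene, was at 34.3 and 23.5 CPM against 42.2 and 40.9 CPM and was not called (adjusted p = 0.161), but was with the block (adjusted p = 0.0114). The list had 4 calls without mutant cushion 1 or mutant ventricle 2, which were Aqp1, Edn1, Pi16 and Wnt9b.

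Among single genes, whether in a list or not, the largest differences toward the mutant cushion included genes best known from the nervous system. Among the 15 largest were Shox2, Vsnl1, Sox2, Grm7, Dpt, Oprk1, Matn4, Sln, Btn1a1, Mstn, Col9a1, Lum, Cthrc1 and Twist1. Sox2, a transcription factor gene of neural and epithelial progenitors, was at 5.49 and 4.95 CPM in mutant cushions, and the 226 counts there stood against 4 in mutant ventricles, a ratio of 61.0 (23.5 to 226). Oprk1, the kappa opioid receptor gene, had 312 counts against 10, a ratio of 33.7 (18.1 to 70.9). In the wild type cushions Sox2 was at 2.63 and 2.02 CPM and Oprk1 at 8.92 and 15.5 CPM. Mstn, which encodes the growth inhibitor myostatin, was at 66.7 and 54.8 CPM in mutant cushions against 3.31 and 1.34 CPM in mutant ventricles, with a log2 fold change of 4.69 ± 0.47 (SE). Btn1a1, a butyrophilin gene, was at 22.9 and 23.2 CPM against 1.02 and 0.625 CPM (4.79 ± 0.34 (SE)), below the 76.3 and 54.4 CPM of the wild type cushions.

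**Figure D3:**
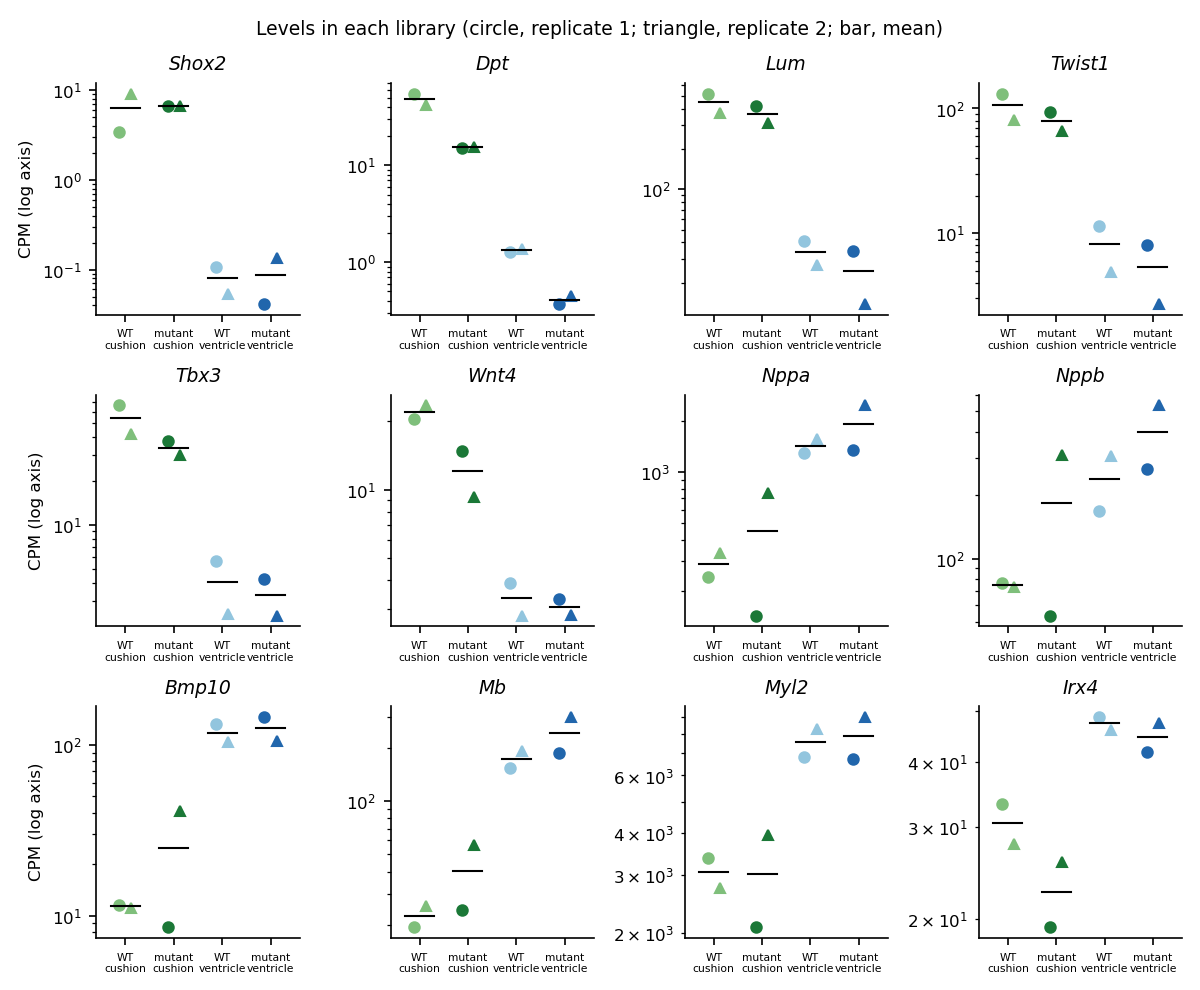
Level in CPM on a log axis (y axis) of 12 genes in each of the 8 libraries, grouped by tissue and genotype (x axis). Shox2, Dpt, Lum, Twist1, Tbx3 and Wnt4 are high in both mutant cushions, while Nppa, Nppb and Bmp10 show mutant cushion 1 far below mutant cushion 2, at 142, 53.4 and 8.53 CPM against 754, 312 and 40.9 CPM.

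On the ventricle side, sarcomere genes were lower in the mutant cushion by modest factors. As background, serum response factor binds the CArG box and MEF2 proteins bind the MEF2 box, while Tbx2 and Tbx3 act on T-box sites of chamber genes such as Nppa. Shown are the 250 bases before the start of Nppa and of 3 sarcomere genes called lower in the mutant cushion, from RefSeq's table for GRCm38.p6, 5′ to 3′ on the gene's strand, with the motif found in capitals. They lie at chr4:148000472-148000721 (plus strand, Nppa, a T-box site AGGTGTGA read on the opposite strand), chr9:110763428-110763677 (plus strand, Myl3, a CArG box), chr2:91117894-91118143 (plus strand, Mybpc3, a MEF2 box) and chr3:123034988-123035237 (minus strand, Myoz2, a MEF2 box).
Nppa: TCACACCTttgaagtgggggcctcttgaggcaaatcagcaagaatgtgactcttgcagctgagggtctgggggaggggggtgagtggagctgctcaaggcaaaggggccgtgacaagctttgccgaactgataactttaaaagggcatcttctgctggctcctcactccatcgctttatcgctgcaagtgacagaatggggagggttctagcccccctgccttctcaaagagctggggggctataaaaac
Myl3: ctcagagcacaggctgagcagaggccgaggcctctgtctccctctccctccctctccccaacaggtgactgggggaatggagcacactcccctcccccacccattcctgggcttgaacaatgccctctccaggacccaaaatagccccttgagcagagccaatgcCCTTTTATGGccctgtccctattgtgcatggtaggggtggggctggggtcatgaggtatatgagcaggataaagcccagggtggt
Mybpc3: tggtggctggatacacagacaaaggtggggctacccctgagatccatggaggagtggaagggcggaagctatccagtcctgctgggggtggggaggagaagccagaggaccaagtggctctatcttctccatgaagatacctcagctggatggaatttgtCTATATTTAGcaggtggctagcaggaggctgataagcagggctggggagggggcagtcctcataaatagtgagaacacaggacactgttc
Myoz2: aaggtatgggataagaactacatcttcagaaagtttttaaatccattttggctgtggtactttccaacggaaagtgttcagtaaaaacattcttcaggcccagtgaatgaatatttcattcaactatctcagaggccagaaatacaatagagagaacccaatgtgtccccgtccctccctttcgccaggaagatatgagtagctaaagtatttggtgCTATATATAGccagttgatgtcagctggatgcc

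Both strands of these windows were searched for the CArG box, the MEF2 box and the T-box site AGGTGTGA. Of the 30 sarcomere genes 24 had a promoter in the table, and 4 of these (16.7%) held a CArG box, 5 (20.8%) a MEF2 box and 1 (4.17%) the T-box site. Among all 27018 promoters of that length the shares were 1.4%, 0.518% and 1.14%. Of the 30 ventricular chamber genes 24 had a promoter, 2 (8.33%) with a CArG box, 0 with a MEF2 box and 1 (4.17%), Nppa, with the T-box site. None of the 24 matrix, 19 mesenchyme factor and 10 AV canal promoters found in the table held any of the 3 motifs. A match describes these letters only. Of the 13 sarcomere and chamber genes with a motif, 4 were called (Myl3, Mybpc3, Myoz2 and Synpo2l) and 9 were not (Actc1, Ttn, Tnni3, Ldb3, Myom1, Xirp2, Nppa, Cited1 and Fhl2), while 10 were called with the block.

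Of the 30 sarcomere and Z-disc genes, 11 were called lower (Actn2, Tnnt2, Myl2, Myl3, Mybpc3, Des, Cryab, Myoz2, Xirp1, Nexn and Synpo2l) and 1 higher (Myom2) in the mutant cushion. The median log2 fold change was -0.79 in mutants and -0.74 in the wild type, where 12 were lower and 1 higher. Myl3, the gene of the ventricular essential light chain, whose CArG box is shown above, was at 438 and 641 CPM in mutant cushions and 1128 and 1730 CPM in mutant ventricles. Mybpc3, cardiac myosin binding protein C, was at 1371 and 1556 CPM against 2504 and 2844 CPM, and Myoz2, a Z-disc protein gene, at 70.1 and 106 CPM against 148 and 210.5 CPM. In each of these genes both cushions lay below both ventricles, with log2 fold changes of -1.40 ± 0.25, -0.87 ± 0.17 and -1.02 ± 0.26 (SE) and adjusted p of 0.0119, 0.0163 and 0.0483 in edgeR.

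Myl2, the ventricular regulatory light chain gene, was at 2074 and 3965 CPM in mutant cushions and 6746 and 9059 CPM in mutant ventricles (log2 fold change -1.39 ± 0.31 (SE), adjusted p = 0.0303). Mutant cushion 2 was 1.91 times as high as mutant cushion 1 and above both wild type cushions, at 3374 and 2733 CPM. Myom2, an M-band gene, went the other way, at 23.2 and 15.2 CPM against 2.82 and 1.29 CPM (3.21 ± 0.47 (SE)). Ttn, the titin gene, took a large share of reads that varied between replicates, at 20220 and 14264 CPM in mutant cushions and 61899 and 10597 CPM in mutant ventricles. Its cushion libraries lay between the ventricle libraries, and it was not called (adjusted p = 0.591). In 23 of the 30 genes both cushions lay below both ventricles, and the replicate block called 24 lower and 1 higher. The list had 0 calls without mutant cushion 1, 3 lower and 1 higher without mutant ventricle 2, and 8 lower and 1 higher without mutant cushion 2.

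Of 30 genes of ventricular chamber muscle, 10 were called lower (among them Myl2, Irx1, Irx4, Irx5, Hey2, Mycn, Lrrc10, Mb and Ckm) and 1 higher (Kcnj2) in the mutant cushion. The list's median log2 fold change was -0.97 in mutants and -0.88 in the wild type. Irx5, a homeobox gene that patterns repolarisation across the ventricular wall, was at 2.50 and 3.26 CPM in mutant cushions and 10.4 and 9.96 CPM in mutant ventricles. Both cushions lay below both ventricles, the log2 fold change was -1.82 ± 0.22 (SE; adjusted p = 0.00274 in edgeR), and Irx5 was called whichever mutant library was left out. Irx4, a ventricle identity gene, was at 19.3 and 25.7 CPM against 41.7 and 47.4 CPM (-0.99 ± 0.17 (SE)) and was not called without mutant cushion 1 (adjusted p = 0.0955).

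Hey2, a Notch target of compact ventricular muscle, was at 83.3 and 95.5 CPM against 154 and 159 CPM (log2 fold change -0.81 ± 0.17 (SE), adjusted p = 0.0228), and was not called without mutant cushion 1 (0.18). Mb, the myoglobin gene, was at 24.2 and 56.3 CPM against 187 and 300.2 CPM (-2.60 ± 0.45 (SE), adjusted p = 0.0198). Kcnj2, an inward rectifier potassium channel gene, was higher in the cushion, at 122 and 109.7 CPM against 54.2 and 47.1 CPM (1.19 ± 0.14 (SE)). Nppa, Nppb, Gja5 and Cited1 were not called in mutants, with mutant cushion 2 far above mutant cushion 1 in each. Leaving out mutant cushion 1 gave 3 calls lower and leaving out mutant ventricle 2 gave 2, against 14 without mutant cushion 2. With the replicate block the chamber list had 16 lower and 3 higher.

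Genes of calcium handling and excitation were lower in the mutant cushion in 5 of 21 cases (Pln, Hrc, Kcnq1, Kcnd2 and Camk2a), and Sln was higher. Hrc, a calcium binding protein gene of the sarcoplasmic reticulum, was at 44.4 and 45.9 CPM in mutant cushions and 105 and 110.0 CPM in mutant ventricles (log2 fold change -1.25 ± 0.14 (SE), adjusted p = 0.00209 in edgeR). Pln, which encodes phospholamban, an inhibitor of the calcium pump, was at 623 and 667 CPM against 1547 and 1674 CPM (-1.32 ± 0.24 (SE)). Kcnd2, a transient outward channel gene, was at 3.29 and 5.25 CPM against 15.9 and 15.4 CPM (-1.87 ± 0.28 (SE)). In these 3 genes the 2 tissues were well apart. Camk2a, Hrc and Kcnq1 were called whichever mutant library was left out and were the 3 calls lower without mutant cushion 1, against 8 without mutant cushion 2. The block called 13 lower.

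Energy genes of heart muscle, which serve fatty acid oxidation, creatine kinase and the respiratory chain, were lower in 10 of 27 cases and higher in 0, with a median log2 fold change of -0.65. Cox8b, a muscle isoform gene of cytochrome oxidase, was at 2.35 and 2.69 CPM in mutant cushions against 6.42 and 10.9 CPM in mutant ventricles. Lpl, lipoprotein lipase, was at 188 and 198 CPM against 425 and 325 CPM, and Cpt1b, the muscle gene of fatty acid import into mitochondria, at 119 and 185 CPM against 283 and 365 CPM. The groups of each gene were separated, with log2 fold changes of -1.77 ± 0.28, -0.96 ± 0.16 and -1.09 ± 0.24 (SE). In 24 of 27 both cushions lay below both ventricles, and the block called 22 lower. There were 0 calls without mutant cushion 1, 3 without mutant ventricle 2 and 14 without mutant cushion 2.

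The 15 largest differences toward the mutant ventricle were Lrtm1, Mb, Tmem88b, Ccdc63, Tnni2, Hs3st4, Mal, Tnnt1, Irx6, Slc26a10, Art1, Msln, Igfbpl1, Doc2g and Abca4. Tnni2 and Tnnt1 encode troponins best known from skeletal muscle, and they were at 6.03 and 9.99 CPM and at 54.8 and 82.2 CPM in mutant cushions, against 40.4 and 47.2 CPM and 209.5 and 396 CPM in mutant ventricles. Tmem88b, a membrane protein gene, was at 2.45 and 4.17 CPM against 16.7 and 21.3 CPM. The log2 fold changes of Tnni2, Tnnt1 and Tmem88b were -2.45 ± 0.34, -2.14 ± 0.33 and -2.51 ± 0.32 (SE). In 14 of the 15 genes mutant cushion 2 was higher than mutant cushion 1, and Lrtm1 was the exception, at 2.70 and 0.738 CPM against 10 and 12.3 CPM.

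Endocardial and general endothelial genes were called mainly on the ventricle side. Among all tested symbols 3.26% were called lower and 6.16% higher in the mutant cushion. Of 29 endocardial and general endothelial genes, 5 were called lower (Tie1, Plvap, Npr3, Gpr182 and Mmrn2) and Sox17 higher in the mutant cushion (list median -0.33, log2 scale). In 17 of the 29 both cushions lay below both ventricles and in 3 above. Pecam1, an adhesion molecule of all endothelium, was at 246 and 300.1 CPM in mutant cushions and 272 and 299.7 CPM in mutant ventricles, with overlapping groups (log2 fold change -0.07, adjusted p = 0.832). Plvap, a gene of fenestrated endothelium, was at 22.4 and 29.5 CPM against 65.5 and 73.6 CPM (-1.42 ± 0.19 (SE), adjusted p = 0.00375 in edgeR). Npr3, a natriuretic peptide receptor of chamber endocardium, was at 232 and 400.2 CPM against 703 and 651 CPM (-1.10 ± 0.25 (SE), adjusted p = 0.0307). Emcn, an endomucin gene of endocardium and veins, was at 41.7 and 112 CPM against 191 and 209 CPM and was not called (adjusted p = 0.111), but was with the block (0.0314) and without mutant cushion 2 (0.00367). Plvap was the 1 call without mutant cushion 1, and the list had 2 lower without mutant ventricle 2. The block called 10 lower and 2 higher.

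Among 16 genes of coronary and capillary endothelium, Esm1, Sox17, Cxcr4 and Unc5b were called higher and Gja4 lower in the mutant cushion. Cxcr4, a chemokine receptor gene, was at 20.6 and 21.3 CPM in mutant cushions against 4.17 and 3.44 CPM in mutant ventricles (log2 fold change 2.46 ± 0.18 (SE), adjusted p = 0.00101 in edgeR). Unc5b, a netrin receptor gene of tip cells, was at 284 and 214 CPM against 96.8 and 88.9 CPM (1.42 ± 0.20 (SE)). Both were called whichever mutant library was left out, while Esm1, Sox17 and Gja4 were not. In 21 Notch and neuregulin genes, 3 were called higher (Heyl, Erbb3 and Hbegf) and 2 lower (Dll1 and Hey2). Dll1, a Notch ligand gene, was at 6.57 and 6.56 CPM against 14.0 and 15.4 CPM (-1.16 ± 0.16 (SE)), and was the 1 call of this list without mutant cushion 1. The list had 2 calls without mutant ventricle 1 or mutant ventricle 2, 7 without mutant cushion 2, and 8 higher and 4 lower with the block.

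Markers of other cell types that the pieces of tissue could hold were read from the same test. Of 13 epicardial genes, Tcf21, a factor of epicardium-derived fibroblasts, was called higher at 32.6 and 31.0 CPM against 10.8 and 8.89 CPM (log2 fold change 1.69 ± 0.18 (SE)), and Msln and Krt19 were called lower. The summed level of the 13 was 432 and 347 CPM in mutant cushions and 469 CPM in both mutant ventricles. Of 12 neural crest and neuron genes, Tubb3, Stmn2 and Elavl4 were called higher and Ednrb lower. Tubb3, a neuronal tubulin gene, was at 16.2 and 11.9 CPM in mutant cushions and 1.59 and 0.759 CPM in mutant ventricles (3.56 ± 0.39 (SE), adjusted p = 0.0024 in edgeR). Of 12 smooth muscle genes, Lmod1 was called higher and Acta2, Myocd and Abcc9 lower. The epicardial, neural and smooth muscle lists had 1, 2 and 0 calls without mutant cushion 1, and 1, 1 and 2 without mutant ventricle 2, and the epicardial list had 0 lower without mutant cushion 2. Without mutant cushion 2, more smooth muscle genes were called higher than lower. The block called 2 epicardial, 6 neural and 4 smooth muscle genes higher, and 4, 1 and 3 lower.

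Blood cell genes were tested in 3 lists. Of 16 erythroid genes 0 were called in edgeR, and the block called 10 lower. Hbb-y, the embryonic globin gene, was at 3101 and 804 CPM in mutant cushions and 6774 and 2287 CPM in mutant ventricles, so that both replicates 1 were the higher ones (adjusted p = 0.49, and 5.47e-05 with the block). The summed erythroid level was 4173 and 1329 CPM in mutant cushions and 8687 and 3229 CPM in mutant ventricles. Of 16 leukocyte genes Ptprc, the CD45 gene, was called higher, at 7.50 and 8.73 CPM against 4.0 and 4.11 CPM (log2 fold change 1.0 ± 0.23 (SE), adjusted p = 0.0326 in edgeR). It was not called without any 1 of the 4 mutant libraries. Among all tested symbols 6.16% were called higher and 3.26% lower, so this 1 call of 16 was near the share called higher. Of 10 platelet genes Gp9 and Treml1 were called lower, with 0 platelet calls without any 1 of the 4 mutant libraries. Of 25 cell cycle genes Rrm2, a subunit of ribonucleotide reductase, was called lower, at 165 and 168 CPM against 271 and 244 CPM. No cell cycle call remained without mutant cushion 1 or without mutant ventricle 2. This 1 call of 25 was also near the share of all symbols called lower. Of 17 immediate early genes Egr2 and Klf6 were called higher, against 7 in the wild type, with 1 call without mutant cushion 2 and 0 without any of the other 3 mutant libraries. The block called 6 leukocyte and 4 immediate early genes higher, 5 cell cycle genes lower, and 4 platelet genes lower and 1 higher. The part of blood in any other result was not tested.

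Mutant cushion 2 was then looked at alone for ventricle genes. The genes were chosen on the wild type libraries only: 54 symbols called lower in the wild type cushion, at least 4-fold, with at least 1 CPM in wild type ventricles. The fold threshold fell between Gria2 (wild type log2 fold change -2.01, inside) and Gbp4 (-1.99, outside), which had -1.95 and -1.43 in mutants. The level of each gene was expressed as a percentage of its mean in the 2 mutant ventricles. The median over the 54 genes was 22.5% in mutant cushion 1 (quartiles 16.0% and 28.9%) and 41.5% in mutant cushion 2 (quartiles 34.3% and 51.7%), against 18.9% and 21.6% in the wild type cushions, whose values were part of the choice. The mutant ventricles themselves had medians of 96.3% and 103.7%. Mutant cushion 2 thus lay between the other cushions and the ventricles.

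Of the 54 genes 46 were higher in mutant cushion 2 than in mutant cushion 1, with a median ratio of 1.77, against 6960 of the 14940 tested symbols with a median ratio of 0.982. The 8 genes lower in mutant cushion 2 than in mutant cushion 1 were Lrtm1, Tmem171, Rasgef1a, Tm4sf5, Krt20, Acss1, 1700042O10Rik and Nkain2. Lrtm1, a leucine-rich repeat membrane protein gene, went from 24.2% of the mutant ventricle mean in mutant cushion 1 to 6.62% in mutant cushion 2. Nkain2 alone reached the lower of the mutant ventricles, at 97.7% in mutant cushion 1 and 93.7% in mutant cushion 2, with levels under 1 CPM in all 4 mutant libraries.

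**Figure D4:**
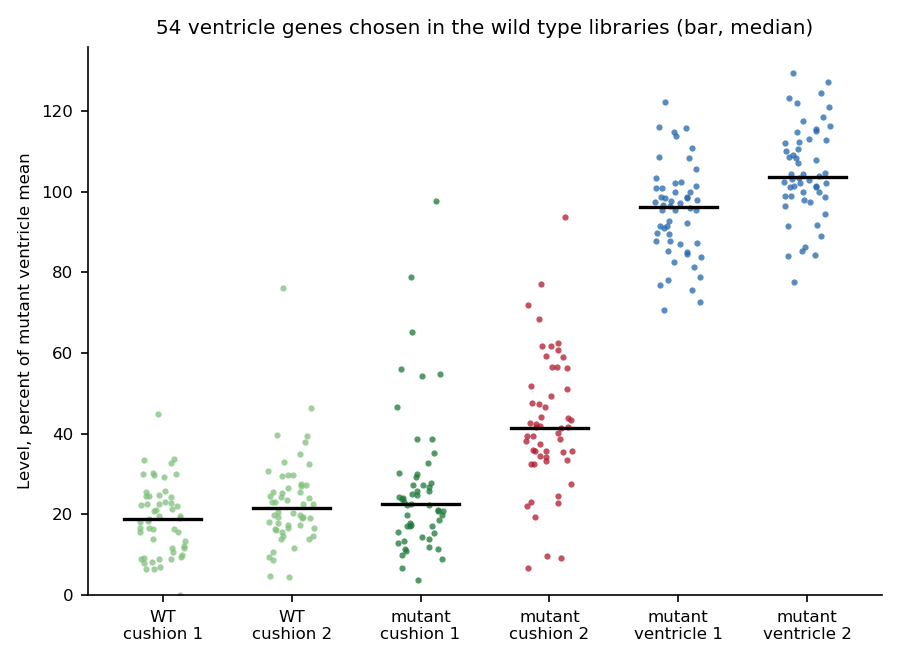
Level of each of the 54 wild type ventricle genes in the cushion libraries and the mutant ventricle libraries (x axis). The y axis is linear and gives the percentage of the mutant ventricle mean, with medians as bars. The median is 41.5% in mutant cushion 2 and 22.5% in mutant cushion 1, and the mutant ventricles lie near 100%.

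Single genes of the chamber and its endocardium were read one by one. Nppa, the gene of atrial natriuretic peptide and a mark of chamber muscle, whose promoter is printed above, was at 142 CPM in mutant cushion 1 and 754 CPM in mutant cushion 2, with 1350 and 2490 CPM in mutant ventricles and 242 and 335 CPM in wild type cushions. Mutant cushion 1 was thus the lowest and mutant cushion 2 the highest of the 4 cushions, at 7.41% and 39.3% of the mutant ventricle mean. The log2 fold change of Nppa was -2.10 ± 0.77 (SE) and not called (adjusted p = 0.16 in edgeR), and without mutant cushion 2 it was -3.76 (adjusted p = 0.00771). Nppb, the related peptide gene, was at 53.4 and 312 CPM in mutant cushions and 265 and 535 CPM in mutant ventricles, so that mutant cushion 2 lay above mutant ventricle 1. Its log2 fold change was -1.13 ± 0.81 (SE; adjusted p = 0.46), and -2.91 without mutant cushion 2 (0.0486).

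Bmp10, a growth factor gene of trabecular muscle, was at 8.53 and 40.9 CPM in mutant cushions and 146 and 106 CPM in mutant ventricles. The wild type cushions had 11.6 and 11 CPM, so mutant cushion 1 lay near them and mutant cushion 2 well above. Bmp10 was not called with all libraries (log2 fold change -2.35 ± 0.67 (SE), adjusted p = 0.091 in edgeR), but was both without mutant cushion 2 (adjusted p = 0.00299) and without mutant cushion 1 (0.022), each of which removes the spread between the cushions. Gja5, the connexin 40 gene of trabeculae, was at 55.2 and 176 CPM against 263 and 288 CPM, and Cited1, a transcriptional coregulator gene of trabecular muscle, at 31.7 and 109 CPM against 207 and 276 CPM. Neither was called with all libraries (adjusted p = 0.246 and 0.126), and both were without mutant cushion 2 (0.0229 and 0.00707), as was Cited1 with the block (0.0486). Ckmt2, mitochondrial creatine kinase, was 6.47 times as high in mutant cushion 2 as in mutant cushion 1, at 9.20 and 1.42 CPM, against 13.0 and 16.6 CPM in mutant ventricles.

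The same direction was seen for genes called with all libraries. Mb was at 9.93% of the mutant ventricle mean in mutant cushion 1 and 23.1% in mutant cushion 2, Myl2 at 26.2% and 50.2%, and Ednrb, an endothelin receptor gene, at 19.9% and 42.5%. Smpx, a small muscle protein gene, was at 145 and 318 CPM in mutant cushions and 559.5 and 665 CPM in mutant ventricles, and was called with the block (adjusted p = 0.0393 in edgeR) but not without it (0.0645). Over the sarcomere and ventricular chamber lists together, which were not cut at a wild type fold, the median of 59 genes was 51.1% in mutant cushion 1 and 62.2% in mutant cushion 2. Mutant cushion 2 was the highest of the 4 cushions in 14 of 30 chamber, 13 of 21 calcium handling, 17 of 27 energy, 16 of 29 endothelial and 10 of 16 leukocyte genes. Over all 14940 tested symbols it was the highest in 4202 (28.1%). Other lists were nearer to or below that share, with 11 of 30 sarcomere, 10 of 25 cell cycle and 2 of 39 matrix genes. The endothelial genes were summed at 2434 CPM in mutant cushion 2, against 2021 to 2159 CPM in the other cushions and 3180 and 3039 CPM in mutant ventricles.

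All 54 ventricle genes had a negative log2 fold change in mutants, with a median of -1.62, and 28 were called. The median was -2.14 with 38 called without mutant cushion 2, and -1.27 with 13 called without mutant cushion 1, and with the replicate block 46 were. The wild type median of -2.42 carries the bias of the choice. On the cushion side, 395 genes chosen in the same way in the wild type all had a positive log2 fold change in mutants, with a median of 2.36, and 299 were called. Of these, 154 were called without mutant cushion 1 and 272 without mutant cushion 2. Their median ratio of mutant cushion 2 to mutant cushion 1 was 0.755, and 82 of the 395 were higher in mutant cushion 2 than in mutant cushion 1, against 6960 of all 14940 symbols. Ventricle genes were thus more often higher, and cushion genes more often lower, in mutant cushion 2 than in mutant cushion 1. The labels do not record how the tissues were cut apart, and the part of ventricle tissue in mutant cushion 2 was not tested.

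Single genes set each mutant cushion apart as well. In mutant cushion 2, Myh3, the embryonic myosin heavy chain gene of skeletal muscle, was at 27.5 CPM, 11.8 times the highest other library. It was the only gene of at least 5 CPM there that lay at least 4-fold above all 7 other libraries. In mutant cushion 1 there were 4 such genes: Rgs5, a pericyte gene, at 54.6 CPM against at most 5.40 CPM elsewhere, Rgs4 at 13.5 CPM against 1.52 CPM, Isl1, a factor of second heart field and pacemaker cells, at 12.3 CPM against 1.5 CPM, and Gkn3, an arterial endothelial gene, at 5.35 CPM against 1.31 CPM. The other 6 libraries had 0 such genes. Eln, the elastin gene, was at 278 CPM in mutant cushion 1 and 14.7 CPM in mutant cushion 2, with 74.6 and 36.4 CPM in the wild type cushions, and Cxcl12, a chemokine gene, was at 140.1 and 34.6 CPM, with 23.8 and 30.6 CPM in the wild type. Eln and Cxcl12 were chosen after their values were seen, and these genes rest on 1 library each.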

How the data were processed

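Total RNA of AV cushions and ventricles was purified on Qiagen micro columns after storage in RNAlater, and sequenced with a stranded kit after removal of ribosomal RNA, per the labels' protocols. The submitters' processing notes name Bowtie 0.12.7 and the mouse build mm9. Which program counted the reads, on which annotation and strand, is not given in the sources used here, so overlapping genes on opposite strands and near-identical copies are uncertain. The deposited values are raw counts per entry, in 8 tables with the same content, of which 1 was read. The table has 28644 entries and 22869 symbols, 3705 of them on more than 1 entry, and the entry with the largest total was kept.

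Counts were tested in edgeR 4.0.16 (R 4.3.3) with TMM scaling, expression filtering and a robust quasi-likelihood fit over all 8 libraries in 4 groups of 2, two-sided, with Benjamini-Hochberg adjustment and a threshold of 0.05. The standard error of a log2 fold change was taken as its size over the square root of F. Replicates differed beyond sampling noise (chi-square per degree of freedom 44.3 to 114.9), so all were used. Deviations of replicate 1 from the group mean correlated in all 6 pairs of groups (r of 0.341 to 0.522, and 0.352 between mutant cushion and mutant ventricle), so the replicate number was used as a block in an added term. This is a pairing seen in the data, since no label explains the numbers. Block values are given beside lists whose counts shift by over 1.5 times and beside genes described as not called that pass with it.

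The members and the 23 gene lists (477 of 496 entries tested) were chosen with earlier results of these data known. The 496 entries hold 466 distinct genes, so some genes are in more than 1 list. Named genes are Klf2, Nfatc1 and Wnt9b, the 15 largest called log2 fold changes in each direction with separated libraries and at least 5 CPM, the 4 smallest p of each list, the 6 smallest p of the genotype difference in each direction and the 10 largest wild type ventricle folds. Other list members were named for their roles after their values were seen. Some genes that this rule names are not reported here. Alternatives were DESeq2 1.42.0, limma-voom 3.58.1, other scalings and filters, a correction for GC content and length (matched for 98.2% of symbols) and leaving out each library. The steps were tested on simulated data. Motifs were searched in RefSeq promoters of GRCm38.p6, and no coordinates were taken from the counts.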

Additional observations from a re-analysis of the deposited data

Results flagged for a closer look

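In 3 of the genes named for a small p of the difference between genotypes, all libraries of the genotypes moved in opposite directions between the tissues. The share of all tested symbols that did so is not given here. Haus3, a subunit of a microtubule-nucleating complex, was at 42.4 and 43.5 CPM in mutant cushions and 38.8 and 35.2 CPM in mutant ventricles, but at 28.0 and 27.7 CPM and 44.5 and 54.1 CPM in the wild type. Its log2 fold change in mutants minus that in the wild type was 1.04. Cenpw, a centromere protein gene, was at 17.5 and 18.2 CPM against 14.3 and 14.2 CPM in mutants and at 11.8 and 10.4 CPM against 16.5 and 17.7 CPM in the wild type, a difference of 0.95. Ttc14 was at 108 and 91.0 CPM against 69.6 and 53.4 CPM in mutants and at 71.5 and 68.5 CPM against 83.3 and 108 CPM in the wild type, a difference of 1.15. None passed the test of the difference itself (adjusted p = 0.415 each in edgeR).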

How the results depend on the processing

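The count of tissue calls in mutants was 3572 with the replicate block, 641 with the 4 mutant libraries only, 2139 with the correction for GC content and length, 4561 with that correction and the replicate block, and 854 with an absolute log2 fold change of at least 1. The count in the wild type was 6180 with the replicate block, 6005 with the block and the correction, and 1510 with the fold limit. The count called in both genotypes in the same direction was 2551, 1802, 3637 and 681 under the block, the correction, both together and the fold limit. Leaving out 1 library at a time, with or without the replicate block, gave 309 to 3379 calls in mutants, 739 to 6824 in the wild type, 304 to 2633 in both and 0 to 1312 for the difference between genotypes. Leaving out a library together with the block was chosen after seeing the data, and the cause of these shifts was not tested. The median percentage of the mutant ventricle mean in mutant cushion 2 was 62.2 with the fixed sarcomere and chamber lists. DESeq2, limma-voom, other scalings and filters and summing entries kept the mutant count between 1382 and 1806. Of the 102 named genes called, all 102 were called with the replicate block, which added 19 of the other 31, while 56 were called without mutant cushion 1 and 62 without mutant ventricle 2, and 0 changed sign. Depth limits genes with few ventricle counts, and 2 libraries a group limit every p-value.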

Other observations

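The other genes with the smallest p for the difference between genotypes were Prps2, Tmem47 and Smc4, higher in mutants, and Notum, Tkt, Nkd1, Emid2, Ralgds and Cygb, lower, and none was called. Smc4, a condensin subunit gene, was at 493 and 499 CPM in mutant cushions and 528 and 457 CPM in mutant ventricles, and at 348 and 326 CPM and 583 and 678 CPM in the wild type. Tkt, the transketolase gene of the pentose phosphate pathway, was at 119 and 93.6 CPM against 62.8 and 77.6 CPM in mutants, and at 169.8 and 186 CPM against 52.9 and 48.5 CPM in the wild type.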
